A study of Mus musculus with 6 samples.

Results

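The genes that write, maintain and remove DNA methylation were followed here in mouse embryonic stem (ES) cells with and without ZRSR2. They were the DNA methyltransferase genes Dnmt1, Dnmt3a and Dnmt3b, the cofactor genes Dnmt3l and Uhrf1, the dioxygenase genes Tet1, Tet2 and Tet3, and the glycosylase gene Tdg. Their introns were taken as the listed introns that lie inside the mm10 RefSeq span of a gene and on its strand, which gave 166 of the 219945 introns measured. PolyA-selected RNA came from 6 libraries of the line VGB6, 3 labelled wild type and 3 labelled ZRSR2 knockout, numbered P2, P3 and P5 in both groups. What P stands for is not stated, and the numbers are used here as replicate numbers. No treatment, age or further allele is named in the labels, nor do they say whether the knockout is 1 clone or whether each library is its own culture. The p-values therefore describe the spread between these samples alone, and that spread may be technical. ZRSR2 is a protein of the minor spliceosome, which removes the rare U12-type introns.

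In mammals DNMT3A and DNMT3B place new methyl groups on cytosines of CG dinucleotides, and DNMT3L, which has no catalytic activity of its own, stimulates both. UHRF1 binds hemimethylated CG after replication and brings in DNMT1, which copies the mark onto the new strand. TET enzymes oxidise methylcytosine, and TDG excises some of the oxidised bases so that base excision repair can restore cytosine. ES cells are known to hold high levels of the de novo enzymes and of TET1 and TET2, little TET3, and a short form of DNMT3A made from an internal start site.

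The deposited spliced count of an intron was read as the number of read gaps that cover it. Libraries held between 19801687 and 63623214 such reads over all introns, with wild-type replicate 2 the lowest. Levels are given as CPM, the gaps summed over the introns of a gene relative to all gaps in genes of that library after TMM scaling. Zrsr2 itself was at 32.7, 39.9 and 32.5 CPM in the wild-type libraries and at 0.544, 0.384 and 0 CPM in the knockout, where the 0 is a count of 0 reads. Of the ES cell markers Pou5f1, Nanog, Utf1, Dppa5a and Zfp42 were measured in all groups, and Sox2, which has no listed intron with reads, was not. The summed level of 9 measured markers of fibroblasts or feeder cells lay between 1105 and 1448 CPM in the wild-type libraries and between 976 and 1365 CPM in the knockout, most of it from Fn1 (897 ± 67.3 and 767 ± 78.0 CPM, SD, n = 3 each) and Vim. The collagen gene Col1a1 was at 116, 67.8 and 34.2 CPM in replicates 2, 3 and 5 of the wild type and at 132, 86.0 and 17.7 CPM in those of the knockout. Col1a2, Col3a1 and Postn likewise were highest in replicate 2 and lowest in replicate 5 of both groups (Col1a2 from 142 to 29.7 and from 170 to 11.9 CPM, Postn from 14.4 to 0.396 and from 16.9 to 0.724 CPM). Vim and Fn1, the bulk of the summed level, broke this order. Vim peaked in replicate 3 whatever the genotype (wild type 246 CPM, knockout 295 CPM). For Fn1 that replicate was the lowest of the wild type (821 CPM) but the highest of the knockout (856 CPM). Thy1 departed from the order in wild type and Dcn in the knockout, whereas S100a4 kept it. The part of these markers in the results below was not tested. The median ratio of gaps near the 5′ end to gaps near the 3′ end of 4647 genes was −0.15 to −0.13 on the log2 scale in 5 libraries and −0.29 in knockout replicate 2. In bulk RNA, fewer cells of a type and less RNA per cell cannot be told apart.

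The start regions of Dnmt3a and Dnmt3b carry the results on isoforms and on the de novo genes, and their RefSeq sequences (GRCm38.p6, the assembly behind mm10) are shown as the 250 bases before the annotated start, 5′ to 3′ on the strand of the gene, with CG dinucleotides in capitals. The windows, all on the plus strand, are chr12:3806730-3806979 for the Dnmt3a long-isoform start, chr12:3891494-3891743 for the internal Dnmt3a start and chr2:153649199-153649448 for the Dnmt3b start.
Dnmt3a long-isoform start: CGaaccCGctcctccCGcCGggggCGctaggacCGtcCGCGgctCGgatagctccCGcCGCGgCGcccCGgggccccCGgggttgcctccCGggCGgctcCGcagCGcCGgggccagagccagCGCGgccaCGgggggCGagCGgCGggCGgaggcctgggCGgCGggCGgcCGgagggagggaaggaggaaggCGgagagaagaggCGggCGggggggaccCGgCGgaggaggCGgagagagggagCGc
Dnmt3a internal start: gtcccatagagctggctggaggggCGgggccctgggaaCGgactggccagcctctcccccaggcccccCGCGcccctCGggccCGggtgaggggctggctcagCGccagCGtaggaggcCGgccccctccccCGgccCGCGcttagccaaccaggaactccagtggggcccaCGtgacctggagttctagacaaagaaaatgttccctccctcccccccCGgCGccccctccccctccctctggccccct
Dnmt3b start: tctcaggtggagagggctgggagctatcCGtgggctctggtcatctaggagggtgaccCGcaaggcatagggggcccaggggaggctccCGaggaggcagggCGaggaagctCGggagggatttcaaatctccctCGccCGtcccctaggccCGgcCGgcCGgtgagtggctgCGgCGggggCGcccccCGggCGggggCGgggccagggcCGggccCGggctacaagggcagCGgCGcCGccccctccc

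The window of the Dnmt3a long-isoform start held 38 CG, a number reached in 1.88% of the 32851 RefSeq windows of that length. A further annotated upstream start of Dnmt3a, not shown above, had 40 CG in its window (chr12:3806910-3807159), reached in 1.31%. The internal Dnmt3a window held 15 CG, reached in 27.3% of windows, and the Dnmt3b window 21, reached in 16.3%, where the median of all windows was 6 CG. At the other genes the count ran from 2 CG at the farthest upstream Dnmt1 start to 51 CG at Tet2, reached in 0.067% of windows. The 3 Dnmt3l windows held 3, 4 and 5 CG. Methylation of these windows was not analysed here.

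The first comparison asked how much of each transcript was present and whether it differed between the groups. To compare genes without their lengths entering, the spliced reads of a gene's innermost introns (introns that hold no other listed intron) were divided by their number. On this scale the means over all 6 libraries ran in the order Dnmt3l (68.6 CPM per intron), Uhrf1 (47.0), Dnmt3b (39.7), Dnmt3a (23.2), Dnmt1 (20.3), Tdg (12.9), Tet1 (5.48), Tet2 (1.84) and Tet3 (0.467). The library ranges of neighbours overlapped from Dnmt3l down to Dnmt1. They were separate from Dnmt1 to Tdg, Tdg to Tet1, Tet1 to Tet2 and Tet2 to Tet3, and in each of these 4 pairs the order held in 6 of 6 libraries. The writers and their cofactors lay above Tdg and all TET genes in every library. The margin was narrowest for Dnmt3a in wild-type replicate 5 (13.22 CPM per intron, with Tdg at 13.18). Little-used introns upstream of the internal start lower the Dnmt3a value. In that library they held 60 reads on average, against 1101 over 13 introns shared by the long and short forms.

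**Figure D1:**
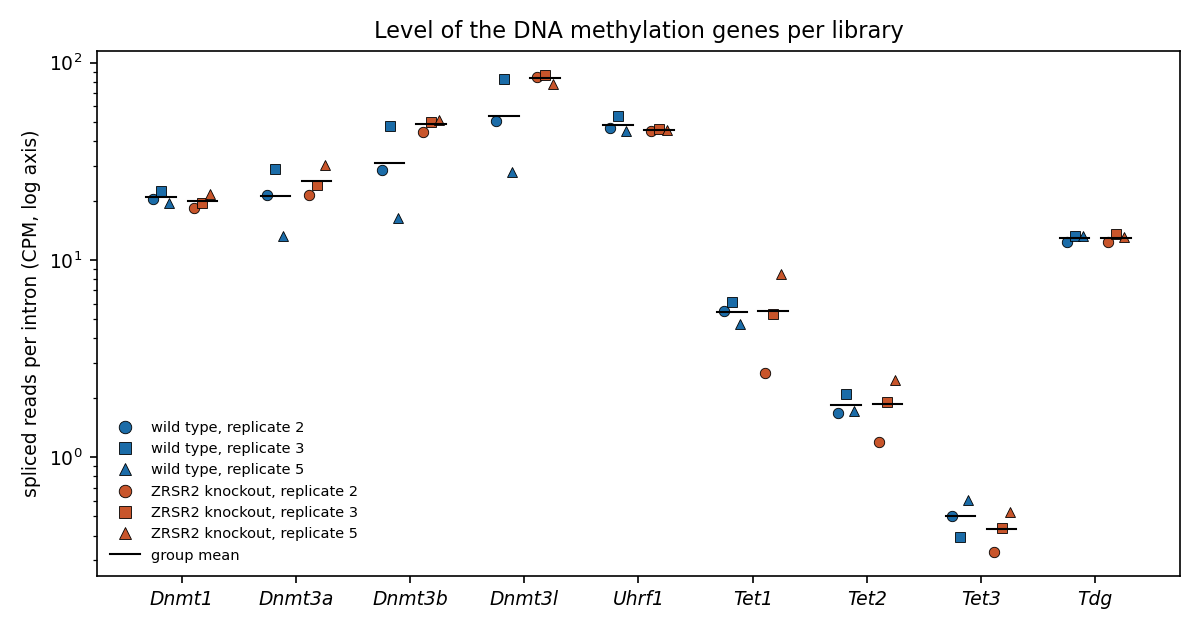
Spliced reads per innermost intron (CPM, log axis) of the 9 genes in each library, with group means as bars (n = 3 each). The groups overlap at every gene, the widest wild-type spread is at Dnmt3b and Dnmt3l, and Tet3 is lowest at 0.331 to 0.606 CPM per intron.

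No difference in level between wild type and knockout passed the test at any of the 9 genes. In edgeR's quasi-likelihood test 0 of 9 passed a Benjamini-Hochberg adjusted p of 0.05 and 0 of 9 had an unadjusted p under 0.05, against 0.0177% (3 genes) and 9.94% of the 16946 genes tested. DESeq2 called 1.31% of genes and 0 of 9 of these. The groups overlapped in 9 of 9, whereas they did not overlap in 15.3% of all genes. The median log2 change of the 9 genes was 0.0027 and that of all genes tested −0.0068. The standard errors ran from 0.088 for Tdg to 0.35 for Tet1, so a change could be seen less finely at the TET and de novo genes than at Tdg, Uhrf1 and Dnmt1.

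Among the de novo genes the wild-type libraries differed more from each other than the groups did. Dnmt3b was at 681, 1159 and 393 CPM in replicates 2, 3 and 5 of the wild type and at 1066, 1206 and 1253 CPM in the knockout replicates of the same numbers. Wild-type replicate 3 lay within the knockout range, and replicates 2 and 5 lay below it. The means were 744 ± 387 and 1175 ± 97.1 CPM (SD, n = 3 each), a log2 change of 0.66 (SE 0.32, edgeR adjusted p = 0.507). Without wild-type replicate 3 the log2 change was 1.13 (edgeR adjusted p = 0.0777), and without wild-type replicate 5 it was 0.35 (edgeR adjusted p = 0.956).

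Dnmt3l, the cofactor that stimulates both de novo enzymes, showed the same order of libraries in wild type. It was at 758, 1240 and 422 CPM in the wild-type libraries and at 1279, 1296 and 1174 CPM in the knockout. Again wild-type replicate 3 reached the knockout values, and the other 2 wild-type libraries lay below all of them. This gave a log2 change of 0.63 (SE 0.32, edgeR adjusted p = 0.515), 1.08 without wild-type replicate 3 (edgeR adjusted p = 0.0847) and 0.32 without wild-type replicate 5 (edgeR adjusted p = 0.956).

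Dnmt3a was at 472, 637 and 292 CPM in the wild-type libraries and at 471, 528 and 670 CPM in the knockout. Its wild-type replicate 5 was the lowest library as well, but the highest was a knockout library, replicate 5. This gave a log2 change of 0.25 (SE 0.26, edgeR adjusted p = 0.731), and it became 0.54 when wild-type replicate 3 was left out, 0.098 when knockout replicate 5 was and 0.0045 when wild-type replicate 5 was.

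Dnmt3b had the widest range of log2 CPM over the libraries (1.67), followed by Tet1 (1.67) and Dnmt3l (1.62). By the rule for the widest range, the genes with the most similar profile were looked up for it. Among 5012 genes whose log2 CPM averaged 5 or more, the nearest was Dnmt3l, with a root mean square difference of 0.105 between the centred log2 profiles over 6 libraries. Also near were Zscan10, which encodes a zinc finger protein of ES cells (0.118), Morc1 (0.172) and Enpp3 (0.176). Zscan10 was at 41.3, 63.4 and 25.8 CPM in the wild-type libraries and 59.2, 77.6 and 66.6 CPM in the knockout, so that wild-type replicate 5 was lowest here too. Dnmt3a ranked 54th of 5012 in likeness to Dnmt3b. Dnmt1, Uhrf1 and Tdg ranked 2401st, 2366th and 2716th, and Tet1 4104th. The profiles share the same libraries, and the ranking is a description with no test.

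**Figure D2:**
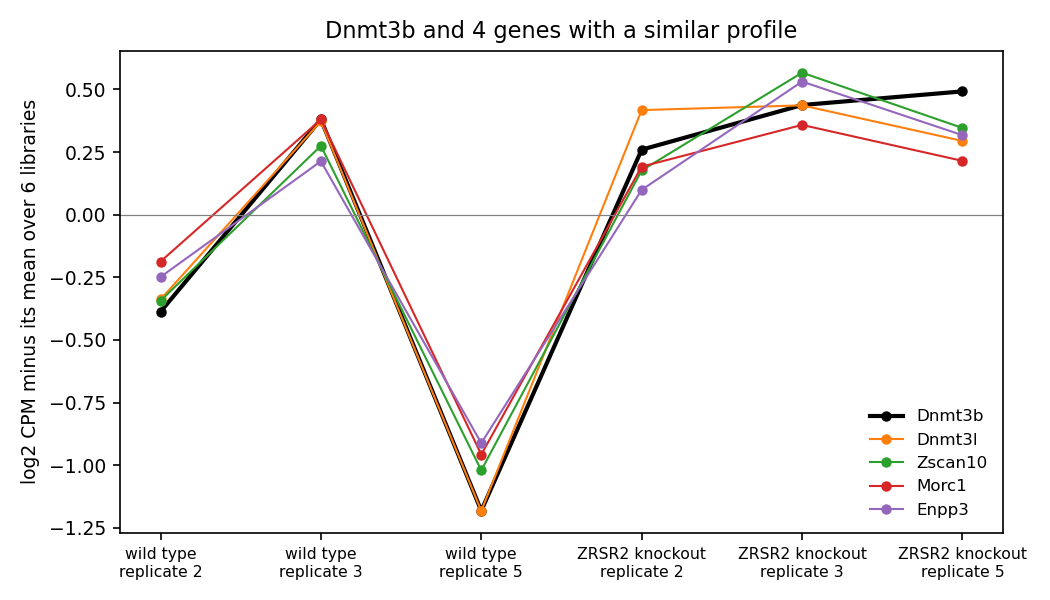
Centred log2 CPM of Dnmt3b and 4 genes near it in each library (y axis: log2 CPM minus the gene's mean over 6 libraries). All 5 profiles are lowest in wild-type replicate 5 and above their mean in wild-type replicate 3 and in the 3 knockout libraries; lines join libraries only to guide the eye.

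The maintenance genes varied little. Dnmt1 was at 772, 843 and 740.1 CPM in the wild-type libraries and at 693, 742 and 818 CPM in the knockout libraries (log2 change −0.064, SE 0.095, edgeR adjusted p = 0.813). Uhrf1 was at 781, 899 and 745 CPM in the wild-type libraries and at 745, 766 and 757 CPM in the knockout libraries (log2 change −0.097, SE 0.092, edgeR adjusted p = 0.705). The highest and lowest library differed 1.22-fold for Dnmt1 and 1.21-fold for Uhrf1, against 3.19-fold for Dnmt3b.

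Of the eraser genes Tet1 spread most, and the spread lay within the knockout. Tet1 was at 60.9, 67.7 and 52.4 CPM in the wild-type libraries and at 29.5, 58.5 and 93.6 CPM in the knockout, whose replicates 2 and 5 were the lowest and the highest of the 6 libraries. The group means were 60.4 ± 7.65 and 60.5 ± 32.1 CPM (SD, n = 3 each; log2 change 0.0027, SE 0.35, edgeR adjusted p = 0.998). The direction rested on single libraries, with −0.46 without knockout replicate 5 and 0.33 without knockout replicate 2.

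Tet2 followed the same order in the knockout, at 14.1, 22.2 and 29.0 CPM against 19.5, 24.5 and 20.1 CPM in wild type (log2 change 0.024, SE 0.25, edgeR adjusted p = 0.978). Tet3 was low throughout, at 5.80, 4.52 and 7.17 CPM in the wild-type libraries and 3.82, 5.12 and 6.01 CPM in the knockout libraries (log2 change −0.23, SE 0.25, edgeR adjusted p = 0.748). Tdg was the steadiest of the 9 genes, at 111, 119 and 119 CPM in the wild-type libraries and 111, 121 and 117 CPM in the knockout libraries (log2 change 0.0025, SE 0.088, edgeR adjusted p = 0.995). Knockout replicate 2, which had the lowest ratio of 5′ to 3′ gaps, was the lowest library for 6 of the 9 genes, all TET genes, Dnmt1, Uhrf1 and Tdg, the last 2 by less than 1 CPM, and the part of that ratio in these values was not tested.

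The second comparison asked which start sites and exons the transcripts used. Where a longer junction and a shorter one share a splice site, the count of the shorter intron also held the gaps of the longer one, so the share of the longer junction was its count over that of the shorter intron. Over all genes 9056 such nested pairs were tested, of which edgeR called 1 (0.011%), and in 12.7% the groups did not overlap in the share. Of 17 pairs in the members 0 were called, and 1, in Dnmt3a, had an unadjusted p under 0.05, against 6.48% of all pairs. The share was lower in every knockout library in 5.47% of all pairs. For 13 shares set up over the members, 2 did not overlap between the groups, a count near what the 12.7% of all pairs would give. Both lie in Dnmt3a and count gaps of its upstream exons, at different introns, so they are not 2 separate results. Single shares were compared by two-sided exact permutation, for which 3 against 3 libraries cannot give a p below 0.1.

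The Dnmt3a short form was the main product in every library. The share of the long isoform did not overlap between the groups, but its difference passed no test. The long-isoform junction (chr12:3873429-3895542, mm10) and the junction from the internal start (chr12:3891861-3895542) end at the same acceptor. The long-isoform share of the gaps into that acceptor was 11.1%, 10.3% and 16.2% in wild type, from 27 of 244, 104 of 1009 and 89 of 551 gaps. The knockout libraries had 6.84%, 7.24% and 7.60%, from 50 of 731, 38 of 525 and 49 of 645 gaps. No knockout library reached the lowest wild-type one, with means of 12.5% ± 3.18 and 7.22% ± 0.379 (SD, n = 3 each; exact permutation p = 0.1, adjusted p = 0.65 over 13 shares). The 95% Wilson intervals, which cover counting error only, overlapped in 6 of the 9 pairs of a wild-type and a knockout library. Those of wild-type replicates 2 and 3 (7.72% to 15.6% and 8.58% to 12.3%) overlapped all knockout intervals, which reached up to 8.90%, 9.78% and 9.90%, and only that of wild-type replicate 5 (13.3% to 19.5%) was clear of them.

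In the fit over all nested pairs this Dnmt3a pair had a log2 change of −0.86 (SE 0.27, edgeR adjusted p = 0.755), which did not pass. The log2 change was −1.05 without wild-type replicate 3 and −0.61 without wild-type replicate 5. Without knockout replicate 2, the library with fewer 5′ gaps, it was −0.82. The log2 ratio of 5′ to 3′ gaps of Dnmt3a itself, which takes in the same upstream introns, ran from −1.17 to −1.07 over the knockout libraries. All wild-type libraries were higher, the lowest at −1.02, and its part in the result was not tested.

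Neither junction of Dnmt3a alone separated the groups. The long-isoform junction was at 1.34, 1.90 and 1.36 CPM in the wild-type libraries and 0.824, 1.22 and 1.36 CPM in the knockout libraries (exact permutation p = 0.3). Gaps of the internal start, with the long ones taken out, were at 10.8, 16.5 and 7.05 CPM in the wild-type libraries and 11.2, 15.6 and 16.6 CPM in the knockout libraries (exact permutation p = 0.4). The wild-type replicate with the highest long-isoform share, replicate 5, was the one with the fewest gaps from the internal start.

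The exons farther upstream gave the same order. Over 5 introns upstream of the internal start the mean count was 4.17%, 2.58% and 5.45% of the mean over 13 introns shared by both forms in wild type. The knockout libraries had 1.88%, 2.32% and 2.41%, again below every wild-type library (exact permutation p = 0.1, adjusted p = 0.65 over 13 shares). The mean upstream count was only 22.4 to 60 reads per intron and library. The upstream intron chr12:3849740-3865984 holds introns of the antisense gene Dnmt3aos. Reads cannot be told apart by strand, but on the reading of counts used here the shorter Dnmt3aos gaps would not cover that intron.

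**Figure D3:**
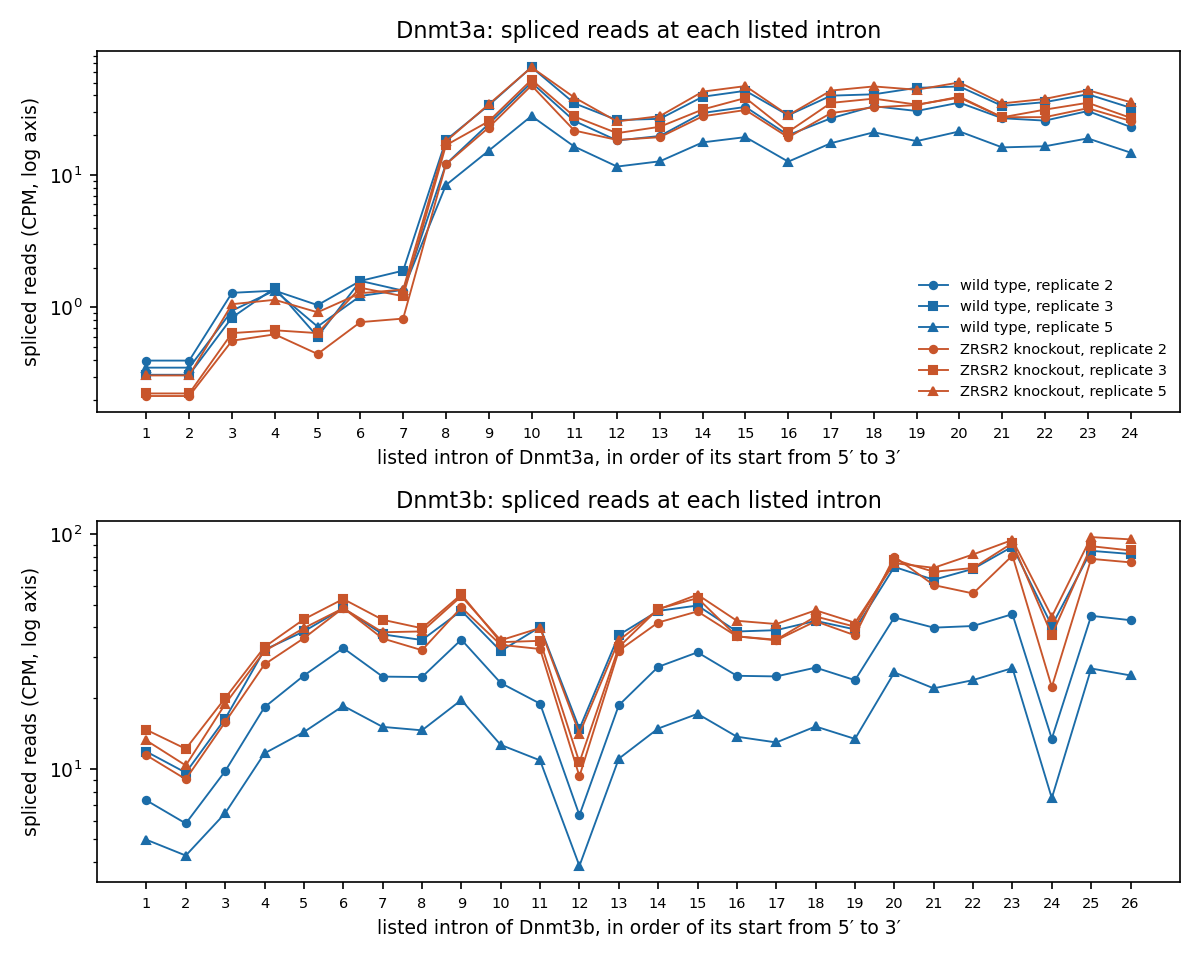
Spliced reads (CPM, log axis) at each listed intron of Dnmt3a (24 introns, top) and Dnmt3b (26 introns, bottom) in order of intron start, 1 line per library. Introns 1 to 7 of Dnmt3a belong to the long isoform and lie near 1 CPM, against 8.40 CPM or more from intron 8; in Dnmt3b the first 3 introns, around the second exon, and introns 12 and 24, which leave out the 60-base exon and the exon pair, lie below their neighbours.

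Dnmt3b is known for isoforms that lack exons, some of them without an intact catalytic domain, and 3 such choices could be read from its junctions. Most gaps on either side of the second exon (115 bases, chr2:153650785-153650899) left it out. Of the gaps that reach the acceptor after it, 59.9%, 58.9% and 66.0% skipped it in the wild-type libraries and 57.1%, 60.8% and 54.8% in the knockout libraries (exact permutation p = 0.3). Of the gaps that leave the first donor the share was higher, 79.7% to 85.6% in the wild-type libraries and 78.3% to 83.0% in the knockout. In wild-type replicate 3, for instance, 528 skipping gaps lay among 649 at the donor and 896 at the acceptor. More gaps thus left the second exon than joined it to the first. Starts at the second exon were not told apart from skipping. The groups overlapped on both sides.

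An exon of 60 bases (chr2:153670849-153670908), which is 20 codons with no remainder, was left out in a minority of transcripts, with overlapping groups. The share was 33.8%, 38.3% and 35.2% in the wild-type libraries and 28.9%, 31.3% and 37.7% in the knockout libraries (means 35.8% ± 2.31 and 32.6% ± 4.51, SD, n = 3 each; exact permutation p = 0.3). The nested pair had a log2 change of −0.26 (SE 0.20, edgeR adjusted p = 0.841).

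A pair of adjacent exons of 70 and 119 bases (chr2:153683608-153683677 and chr2:153684359-153684477) near the 3′ end, 189 bases or 63 codons together, was left out as a unit to an extent that differed between libraries of the same group. It was skipped in 30.4%, 47.7% and 29.0% of gaps in the wild-type libraries and in 28.5%, 42.0% and 47.0% in the knockout. Wild-type replicate 3 and knockout replicates 3 and 5 were high, and the other 3 libraries were near 30%. The 95% Wilson intervals were 46.3% to 49.2% in wild-type replicate 3 and 27.5% to 33.5% in wild-type replicate 2, so libraries of 1 genotype differed by more than counting error. The means were 35.7% ± 10.5 and 39.2% ± 9.58 (SD, n = 3 each; exact permutation p = 1). The 60-base exon and this pair were both left out most often in replicate 3 among the wild-type libraries and in replicate 5 among the knockout libraries.

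Dnmt3l transcripts began almost wholly at 1 start. The intron of the upstream start (chr10:78042389-78045874) held 4, 30 and 26 reads in the wild-type libraries and 34, 12 and 6 in the knockout, which was 0.323%, 0.580% and 1.23% of the gaps at both first introns in the wild-type libraries and 0.627%, 0.377% and 0.185% in the knockout. That intron also holds introns of Aire on the other strand, whose shorter gaps would not cover it on the reading of counts used here. At the 3 listed introns of later Dnmt3l starts, 0 to 4 reads per library exceeded those of the common intron around them, so almost no reads were particular to those starts.

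The other genes gave overlapping shares as well. The Dnmt1 start farthest upstream took 2.04%, 2.21% and 2.51% of gaps in the wild-type libraries and 4.33%, 1.89% and 3.94% in the knockout, from 7 to 34 reads per library. The upstream Uhrf1 start took 86.3%, 87.0% and 83.2% in the wild-type libraries and 84.5%, 86.7% and 87.2% in the knockout. The upstream Tet3 start took 53.8% to 84.6% over all libraries, from only 6 to 43 gaps. Its intron also holds introns of B230319C09Rik on the other strand, whose shorter gaps would likewise not cover it.

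A Tet2 exon of 24 bases (chr3:133479342-133479365, 8 codons) was left out in 73.3%, 64.1% and 75.9% of gaps in the wild-type libraries and in 72.0%, 71.2% and 71.7% in the knockout. Skipping was the main form in every library. A Tet1 exon of 96 bases (chr10:62818939-62819034, 32 codons) was included in most transcripts, being left out in 5.33%, 3.75% and 2.37% of gaps in the wild-type libraries and 9.22%, 2.93% and 2.51% in the knockout. The high Tet1 value again came from knockout replicate 2, where it rests on 16 reads.

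**Figure D4:**
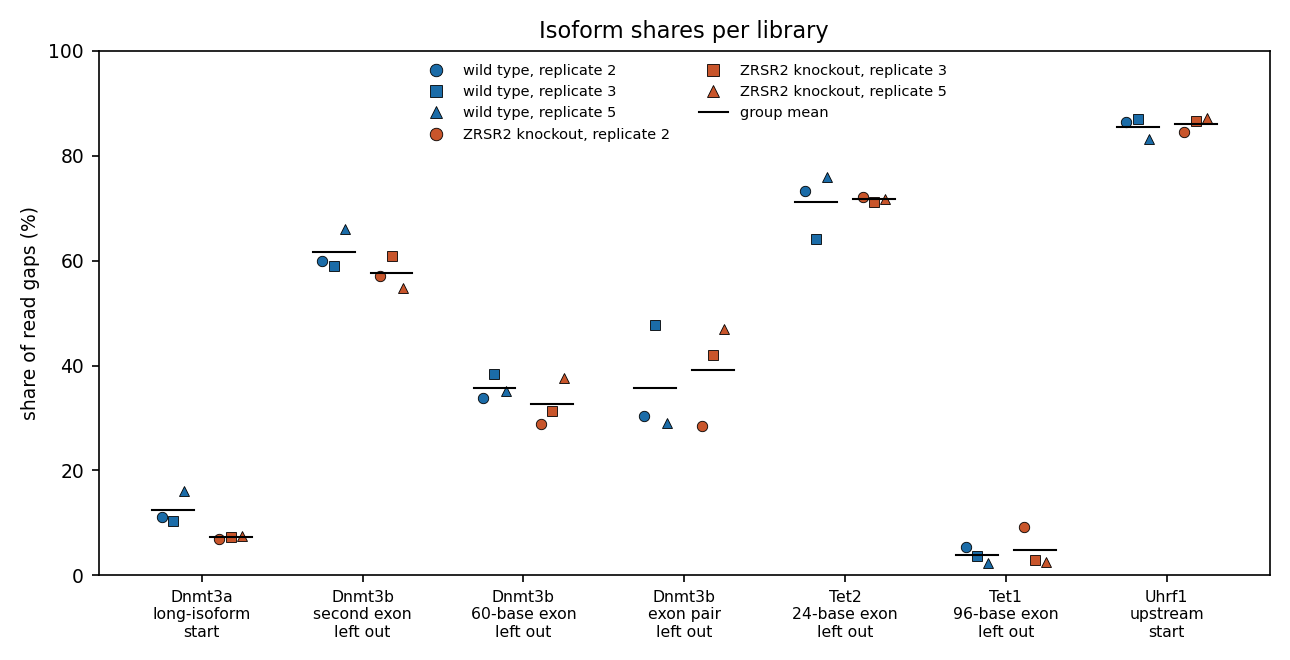
Share of read gaps (%) that use a start or leave out an exon, per library, with group means as bars (n = 3 each). The groups are apart only at the Dnmt3a long-isoform start (10.3% to 16.2% against 6.84% to 7.60%) among the 7 shares drawn; the Dnmt3b exon pair is spread from 28.5% to 47.7% within both groups.

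Usage of each intron against the rest of its gene was tested for all genes. In edgeR 0 of 164953 introns (0%) passed an adjusted p of 0.05, and 4% had an unadjusted p under 0.05. limma called 0 as well, with 4.72% at an unadjusted p under 0.05. Of the 166 introns of the members 0 passed and 7 had an unadjusted p under 0.05. Of these 7, 3 were upstream introns of Dnmt3a, among them the long-isoform junction (log2 change −0.81, SE 0.23, edgeR adjusted p = 1), and they rest on the same reads as the start shares above. The others were 2 in Tet1 and 1 each in Dnmt1 and Tet2.

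The third comparison asked whether introns of these genes were retained. MSI, a percent in the deposited tables, is the share of signal at an intron that is unspliced. Most introns of the members were removed almost fully, with a median MSI of 0.954% over 149 introns with enough reads (at least 20 per library) and a range of 0.0282% to 14.1%. In edgeR 0 of 149 introns passed for retention, and 5 had an unadjusted p under 0.05, against 0.0273% (26 introns) and 4.14% of the 95371 introns tested. limma called 0 of all introns, with 4.46% at an unadjusted p under 0.05. MSI was higher in every knockout library at 4 introns and lower in every one at 7, together 7.38%. Of all introns tested 7.91% did not overlap, 3.9% being higher and 4.01% lower. The median log2 odds of retention was 0.012 for the members and 0.021 for all introns. None of the 12 Tet3 introns had enough reads.

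The introns with the most unspliced signal were found in Tet2, Tet1 and Dnmt1. In Tet2 it was the intron downstream of the 24-base exon (chr3:133476636-133479341, minus strand), with an MSI of 21.7%, 16.9% and 16.7% in the wild-type libraries and 12%, 17.2% and 4.12% in the knockout. These rest on 8 to 43 unspliced reads per library, and the groups overlapped (log2 odds −0.92, SE 0.51, edgeR adjusted p = 1). In Tet1 it was the last intron (chr10:62813413-62813577, minus strand), at 13.7%, 12.2% and 16.1% in the wild-type libraries and 11.5%, 10.4% and 9.28% in the knockout. Every knockout library was below every wild-type one there, at 14.0% ± 1.93 and 10.4% ± 1.09 (SD, n = 3 each), but the change did not pass (log2 odds −0.50, SE 0.36, edgeR adjusted p = 1).

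In Dnmt1 the intron chr9:20912309-20912571 (minus strand) was at 10.3%, 9.38% and 8.13% in the wild-type libraries and 9.51%, 17.4% and 14.2% in the knockout libraries (log2 odds 0.60, SE 0.41, edgeR adjusted p = 1). Knockout replicates 3 and 5 were high and replicate 2 lay among the wild-type values. The intron of highest MSI was at 6.05% over all libraries in Dnmt3b (chr2:153674067-153674348), 4.81% in Uhrf1 (chr17:56320283-56320396), 4.56% in Dnmt3a (chr12:3899700-3899863), 3.81% in Dnmt3l (chr10:78055067-78056844) and 2.15% in Tdg (chr10:82644710-82647221), and in each of these 5 the groups overlapped. The Dnmt3l intron holds later start sites of the gene, at whose listed introns 0 to 4 reads per library exceeded those of the intron around them. It held 65 to 406 unspliced reads per library, and the part of those starts in its MSI was not tested.

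The smallest p of all belonged to the Dnmt3b intron just before the 60-base exon (chr2:153670448-153670848). Its MSI was 0.779%, 0.294% and 0.420% in the wild-type libraries and 0.0254%, 0.273% and 0.105% in the knockout, lower in every knockout library. It rests on 1 to 13 unspliced reads per library, beside 382 to 2203 spliced ones (log2 odds −1.79, SE 0.59, edgeR adjusted p = 1). The intron of smallest p in Uhrf1 (chr17:56310837-56312053) was at 2.04%, 2.41% and 3.16% in the wild-type libraries and 1.38%, 2.0% and 1.99% in the knockout libraries (log2 odds −0.55, SE 0.28, edgeR adjusted p = 1). In Tdg it was chr10:82647394-82647952 (log2 odds −1.20, SE 0.53, edgeR adjusted p = 1), and in Tet2 the long junction around the 24-base exon (chr3:133476636-133480132; log2 odds −1.22, SE 0.59, edgeR adjusted p = 1). In Dnmt1 (chr9:20920207-20922022), Dnmt3a (chr12:3872879-3873281) and Tet1 (chr10:62814574-62816383) the intron of smallest p had log2 odds of 0.93, 1.48 and 2.13 from at most 8 unspliced reads per library (edgeR adjusted p = 1 for each), and in Dnmt3l it was the intron of highest MSI, named above.

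Pooled over all introns of a gene, MSI was lower in every knockout library for 3 of the 9 genes, Tet2, Tet3 and Tdg, and higher in every one for 0. Of all genes 7.87% did not overlap, with 3.48% higher and 4.38% lower. Tet2 was at 6.43%, 4.92% and 4.90% in the wild-type libraries and 3.49%, 4.47% and 3.07% in the knockout libraries (means 5.42% ± 0.877 and 3.68% ± 0.716, SD, n = 3 each). Where introns share a splice site, unspliced reads at that site count in each. In Tet2 the nested introns chr3:133476636-133479341 and chr3:133476636-133480132 do. In the wild-type libraries they held 15, 42 and 43 and 14, 24 and 24 of 54, 139 and 136 unspliced reads. In the knockout they held 21, 22 and 8 and 11, 6 and 9 of 62, 65 and 66. The part of these introns in the separation was not tested. Tdg was at 1.25%, 1.12% and 1.02% in the wild-type libraries and 0.864%, 0.785% and 0.928% in the knockout. Tet3 was at 1.27%, 1.98% and 1.36% against 1.07%, 0.929% and 0.461%, from 2 to 13 unspliced reads per library. For each of the 3 genes the exact permutation p was 0.1, the smallest 3 against 3 libraries allow, and 0.3 after adjustment over the 9 genes. Over all introns of the series pooled MSI was 1.74%, 1.75% and 1.65% in the wild-type libraries and 1.56%, 1.89% and 1.72% in the knockout.

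**Figure D5:**
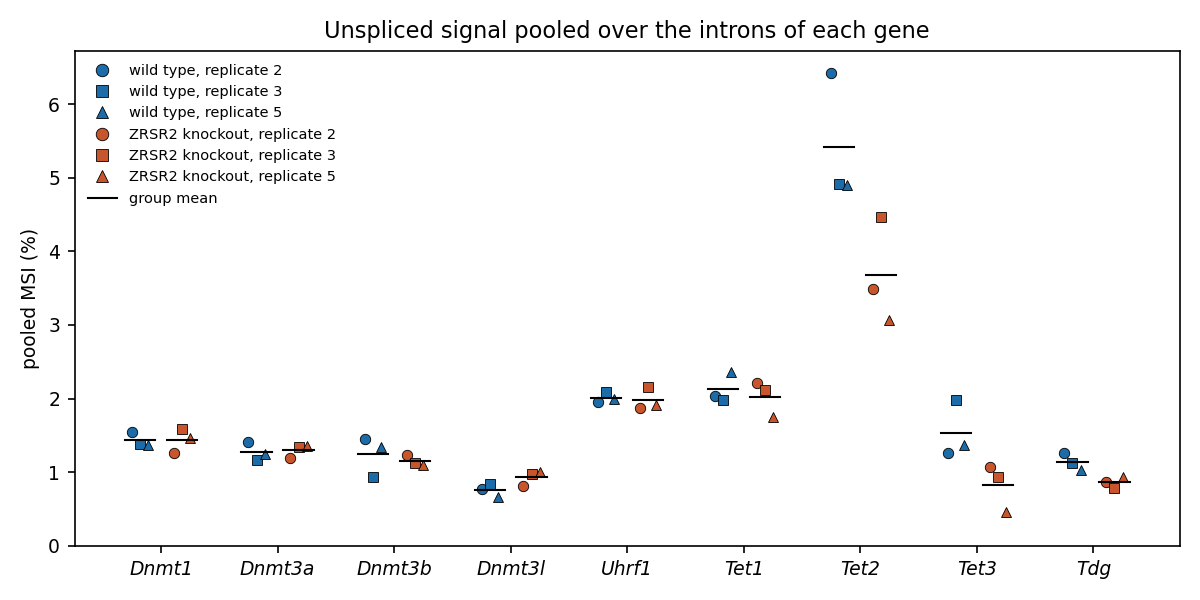
Pooled MSI (%) over the introns of each gene per library, with group means as bars (n = 3 each). Tet2 has the highest values (3.07% to 6.43%), and the groups are apart at Tet2, Tet3 and Tdg only.

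The deposited covered fraction, read as the part of an intron's length with reads, was compared in the same way. Of the 149 introns it was higher in every knockout library at 1 and lower at 4, together 3.36%, against 4.99% of all introns tested (1.1% higher and 3.88% lower). At the long Tet2 junction around the 24-base exon it was 0.995, 1 and 1 in the wild-type libraries and 0.964, 0.971 and 0.993 in the knockout, so the intron was covered over nearly its whole length in both groups.

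Partner genes of the pathway were counted from lists. Of 43 genes tested in 7 lists 0 passed in edgeR in either direction, and 0 in DESeq2. The lists were maintenance partners, repressor partners, genes taken as readers of methylated CG, and base excision repair. The others were cofactor supply, CXXC-domain and TET partners, and an RNA methyltransferase relative. The median log2 change of a list ran from −0.12 for the CXXC-domain and TET partners to 0.22 for the repressor partners. That of all genes was −0.0068. Among maintenance partners Usp7, a deubiquitinase that stabilises UHRF1 and DNMT1, was at 663 ± 48.6 and 684 ± 94.2 CPM in the wild-type libraries and knockout. Hells, a chromatin remodeller needed for normal methylation, was at 542 ± 139 and 636 ± 52.1 CPM. Uhrf2, the paralog of Uhrf1, was at 75.2 ± 7.11 and 61.2 ± 6.09 CPM, lower in every knockout library (edgeR adjusted p = 0.496), and Dppa3, which keeps UHRF1 off chromatin, at 26.1 ± 3.66 and 21.5 ± 3.78 CPM.

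Among repressor partners Trim28, the corepressor of KRAB zinc finger proteins, was at 2369 ± 457 and 2833 ± 129 CPM and the deacetylase gene Hdac1 at 822 ± 31.7 and 769.8 ± 35.9 CPM. Zfp57, which guards methylation at imprinted regions, was at 42.0 ± 8.61 and 55.9 ± 10.4 CPM, and the histone methyltransferase gene Setdb1 at 152 ± 16.1 and 177 ± 7.90 CPM. Of the genes taken as readers Mbd3 was at 146 ± 12.5 and 171 ± 16.6 CPM and Mbd2 at 25.7 ± 1.80 and 25.8 ± 2.12 CPM. Mbd4, a glycosylase, was at 10.3 ± 1.16 and 8.16 ± 0.955 CPM, lower in every knockout library. In base excision repair Parp1 was at 829.7 ± 34.9 and 792 ± 24.1 CPM, Xrcc1 at 177 ± 7.11 and 179 ± 23.3 CPM, the endonuclease gene Apex1 at 77.3 ± 19.5 and 95.2 ± 1.12 CPM and the glycosylase gene Neil3 at 7.29 ± 2.22 and 4.15 ± 0.512 CPM. Neil3 was lower in every knockout library and did not pass (log2 change −0.81, SE 0.26, edgeR adjusted p = 0.477).

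Cofactor supply covers enzymes that make or use S-adenosylmethionine and the 2-oxoglutarate that TET enzymes consume. Ahcy was at 466 ± 49.5 and 464 ± 25.4 CPM and Mat2a at 226 ± 69.7 and 276 ± 62.8 CPM. The isocitrate dehydrogenase genes, whose products form 2-oxoglutarate, were lower in every knockout library without passing, Idh1 at 107 ± 12.8 and 79.0 ± 10.8 CPM (edgeR adjusted p = 0.469) and Idh2 at 208 ± 79.1 and 132 ± 4.56 CPM (edgeR adjusted p = 0.485). Of the CXXC-domain and TET partners Ogt, whose enzyme binds TET proteins, was at 160.3 ± 26.8 and 125 ± 8.09 CPM. Kdm2b was at 190.1 ± 2.43 and 176 ± 20.1 CPM, lower in every knockout library. Sin3a was at 178 ± 15.6 and 164 ± 14.2 CPM. Cxxc1 was at 71.5 ± 9.14 and 86.9 ± 4.52 CPM, higher in every knockout library. Of all genes tested 8.04% were lower in every knockout library and 7.3% higher. Trdmt1, the RNA methyltransferase once named with the DNA enzymes, was at 16.9 ± 1.97 and 17.4 ± 2.38 CPM.

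Genes taken as regulators of the members in ES cells, mostly transcription factors, were tested as a list of 12, of which 11 were measured. In edgeR 0 of 11 passed, and 4 had an unadjusted p under 0.05, against 9.94% of all genes. Of the 11 genes 8 were lower and 3 higher, with a median log2 change of −0.41. Lower in every knockout library were 3, and higher in every one 1, against 8.04% and 7.3% of all genes tested. In DESeq2, which called 1.31% of all genes, 1, Tbx3, was lower. Tbx3, a factor of naive pluripotency, was at 16.9, 21.0 and 28.5 CPM in the wild-type libraries and 10, 12.1 and 12.1 CPM in the knockout libraries (log2 change −0.96, SE 0.21, edgeR adjusted p = 0.349, DESeq2 adjusted p = 0.00274). Pou5f1, the core factor of pluripotency, was at 471 ± 127 and 649.7 ± 50.9 CPM, higher in every knockout library, and Nanog at 93.7 ± 34.5 and 62.5 ± 7.76 CPM (edgeR adjusted p = 0.485 and 0.498).

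Germline genes whose promoters are known targets of DNA methylation in ES cells and early embryos were tested as a list of 21. In edgeR 0 of 21 passed, with 8 higher and 13 lower, where 8310 and 8636 of all 16946 genes were, and DESeq2 called 1, Stra8, against 1.31% of all genes. Stra8, which is needed for entry into meiosis, was at 272, 266 and 381 CPM in the wild-type libraries and 144, 148 and 139.9 CPM in the knockout, lower in every knockout library (log2 change −1.09, SE 0.14, edgeR adjusted p = 0.119, DESeq2 adjusted p = 4.02e-09). Hormad1 was at 66.0 ± 25.4 and 84.8 ± 16.9 CPM, and Brdt, a bromodomain gene of the testis, at 2.50 ± 0.457 and 1.33 ± 0.152 CPM (edgeR adjusted p = 0.469).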

How the data were processed

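Per the labels' protocols, total RNA was purified on RNeasy columns, and TruSeq libraries were made from its polyA fraction. No aligner, counter or strand setting is given in the sources used here, and mm10 is named in the submitters' processing notes. The authors deposited, per intron and library, raw counts (columns A1, A2 and Exon), a fraction (CovFrac) and a percent (MSI). The deposited MSI equalled 100 × (A1 + A2) / (A1 + A2 + 2 × Exon) within 0.01 in 1319670 of 1319670 values. The Exon count of an inner intron was below that of an intron around it in 0 of 155304 same-strand and 0 of 43206 opposite-strand comparisons, so it was read as gaps covering the intron, without strand. Neither reading is a stated definition.

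Sums of Exon per gene went into edgeR 4.0.16 (R 4.3.3; TMM, filterByExpr, quasi-likelihood, Benjamini-Hochberg adjusted p under 0.05). Retention was the interaction of read kind (A1 + A2 against Exon) with genotype, for introns with at least 20 reads in every sample, and usage the same for an intron against the rest of its gene (10 reads each). Between 99.4% and 99.5% of spliced reads lay in named genes. Alternatives used DESeq2 1.42.0, limma 3.58.1, other scalings, filters and read minimums, each library left out and a replicate block. Tested on simulated data, the fits of retention, usage and nested pairs missed most of the smaller changes.

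The members and lists were chosen with earlier results of these data known. All 9 genes were named, and of their introns those of highest MSI, smallest retention p or used in a share; of each list the 2 of highest level and the 2 of smallest p, or those called; 1 gene that the likeness rule names is not reported here. Chosen after values were seen were the exact 13 shares, the definition of a share by nesting (the planned one took junction counts as separate), the fit of nested pairs (at least 30 reads in all and 10 of each kind), innermost introns and the 5′ to 3′ ratio. Retention was first fitted on introns with a gene name and then on all introns, with 0 calls in the members both times. Promoter windows are RefSeq's for GRCm38.p6 and matched 9 of 9 genes. A deposited 0 or a small count carries counting error that Wilson intervals (95%) describe, and PCR reads are not independent molecules. No genome sequence was used, so introns were not classed as U12-type or U2-type.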

Additional observations from a re-analysis of the deposited data

How the results depend on the processing

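The counts of members called (0 for level, retention, usage and nested pairs) were 0 under every alternative run, each left-out library included. Of the 13 shares, 2 did not overlap between the groups, and also 2 with deposited counts taken as separate junctions; without single libraries the number was 2 to 5, with 5 without knockout replicate 3, where 3 against 2 libraries separate more easily.

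Changes near 0 turned sign. For Tdg (0.0025) the log2 change was −0.037 with library size only and −0.00064 with no filter, and −0.030 to 0.039 without single libraries. For Tet1 (0.0027) it was −0.037, −0.0028 and −0.46 to 0.33, and for Tet2 (0.024) −0.015 with library size only and −0.24 to 0.26 without single libraries. The Uhrf1 intron chr17:56320283-56320396 had log2 odds of −0.0100 to 0.092 and the Dnmt3b exon pair −0.035 to 0.61 without single libraries. The share of that exon pair, knockout minus wild type, differed by 3.49 percentage points from library means and by −3.54 from the summed reads of a group. The cause was not tested.

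Samples of the same replicate number had correlations of 0.101, 0.122 and 0.0052 in their deviations from group means, so the numbers were not taken to pair them. With the replicate block the log2 change was −0.14 for Tet1 and −0.022 for Tet2, the Dnmt3a nested pair was at −0.86 (edgeR adjusted p = 0.359), and 8 genes, 0 of them members, were called for level in place of 3. The number of genes called was 222 in DESeq2, 7 with no filter, 35 without wild-type replicate 3, 22 without knockout replicate 5, 1 without wild-type replicate 2 or 5, and 0 without knockout replicate 3. For retention 26 introns were called in edgeR, 0 in limma and 7 to 25 without single libraries, and for nested pairs 1, with 0 in limma and 0 to 2 without single libraries or with the block. With library size only, the median log2 change of all genes was −0.046. Low counts limit Tet3, the upstream Dnmt3a exons and introns of low MSI.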
